A study of Mus musculus with 12 samples.

Results

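The 4 mature miRNAs mmu-miR-126-3p, mmu-miR-126-5p, mmu-miR-143 and mmu-miR-145, all known from the vessel wall, were followed through the miRNA-Seq data of mouse frontal cortex (FCx) and hippocampus (HP). They were taken as the rows of the count files with exactly these names, without the star forms, and all 4 were found among the 469 miRNAs listed in any file. RNA came from untreated male C57BL/6J mice of 8 weeks, and for each region the tissue of 3 mice was pooled before RNA was extracted. From each pool 3 libraries were made that carry index 3, 7 or 11, a tag of 6 nt that lies between the 5′ adaptor and the first base of the miRNA. Each library was run alone in an individual lane and again in a shared lane that held all libraries of its region, and both runs were added. Libraries of a region thus came from the same RNA, and their spread holds the effect of the index and of library preparation but no difference between mice.

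The miRNA counts summed to 391410, 1461732 and 652449 for indexes 3, 7 and 11 of FCx, and to 3206221, 4956117 and 4053518 in the HP libraries. Levels are in CPM, reads of the miRNA among 1000000 miRNA reads of the library. In FCx 3 counts correspond to 7.66, 2.05 and 4.60 CPM, and in HP to 0.936, 0.605 and 0.740 CPM, so low levels were measured less precisely in FCx. Intervals are 95% exact intervals by the method of Clopper and Pearson. The reads carried no molecular identifiers, and the intervals cover counting error only.

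miR-126 is made in endothelial cells, where it acts in angiogenesis and in keeping vessels intact. Its hairpin lies in an intron of Egfl7, a gene of secreted endothelial protein, and gives a mature miRNA from each arm, miR-126-5p and miR-126-3p. miR-143 and miR-145 come from neighbouring hairpins of 1 primary transcript and are best known from vascular smooth muscle and pericytes, where they act in the contractile state of the cells. Vessel cells are a minority of the cells of brain tissue, and in bulk samples such as these fewer vessel cells and less miRNA per vessel cell cannot be told apart.

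In NCBIM37, the genome build of the alignment files, the Mir126 hairpin of 73 nt lies on the plus strand at chr2:26446877-26446949. In the GENCODE annotation of this build it is inside Egfl7 (chr2:26435534-26448640). Of 21 annotated Egfl7 transcripts, 10 place it in an intron, 1 places it inside an exon and 10 do not span it. In 8 of these transcripts the intron is the same, with 600 nt at chr2:26446584-26447183. A further annotated gene, Gm20532, also overlaps the hairpin.

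The 3p arm of miR-126 is shown because its reads began at more than 1 base, as described further on. The hairpin and the mature sequence are those of RefSeq (GRCm38.p6, where the hairpin is at chr2:26591357-26591429 on the plus strand). The hairpin is identical in NCBIM37. Capitals mark the mature 3p arm in the hairpin and the seed, bases 2 to 8, in the other lines. The last 3 lines are stretches of NCBIM37 sequence of 22 bases that begin 1 base before, at and 1 base after the start of the mature miRNA.
Mir126 hairpin: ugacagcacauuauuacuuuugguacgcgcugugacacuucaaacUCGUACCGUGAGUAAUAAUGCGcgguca
miR-126-3p: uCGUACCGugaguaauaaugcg
start 1 base before (chr2:26446921-26446942): cUCGUACCgugaguaauaaugc
mature start (chr2:26446922-26446943): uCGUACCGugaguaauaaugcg
start 1 base after (chr2:26446923-26446944): cGUACCGUgaguaauaaugcgc
A shift of the start by 1 base changes the seed, and the first base of both shifted forms is c.

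The first question was how strongly each miRNA was read in each region. miR-143 was the most abundant of the 4 in every library, miR-126-5p was next, and miR-126-3p and miR-145 had as few as 3 counts and 1 count in an FCx library. The mean level of miR-143 was 374 ± 191 CPM (SD, n = 3 libraries) for FCx and 397 ± 257 CPM for HP. For miR-126-5p it was 69.1 ± 4.72 and 107 ± 28.5 CPM in the same order. For miR-126-3p it was 19.998 ± 18.6 and 19.7 ± 16.7 CPM, and for miR-145 it was 5.23 ± 6.54 and 6.18 ± 2.58 CPM. All 4 together took 439, 274 and 691 CPM of the FCx libraries (indexes 3, 7 and 11), and 477, 272 and 839 CPM of the HP libraries. The sum was thus closer between regions of the same index than between indexes of the same region.

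The order of the levels was clear at the top and not at the bottom. miR-143 ranked between 57 and 94 of the 344 to 385 miRNAs listed in an FCx library, and between 47 and 104 of the 394 to 422 listed in an HP library. The lowest miR-143 level of any library, 178 CPM, was above the highest miR-126-5p level, 133 CPM. The lowest miR-126-5p level, 63.6 CPM, was above the highest miR-126-3p level, 41.4 CPM. miR-126-3p and miR-145 overlapped across libraries. In the FCx library with index 3 miR-145 had 5 counts and miR-126-3p had 3. These are ranks of reads, since the levels of different miRNAs were not corrected for how well each is ligated.

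**Figure D1:**
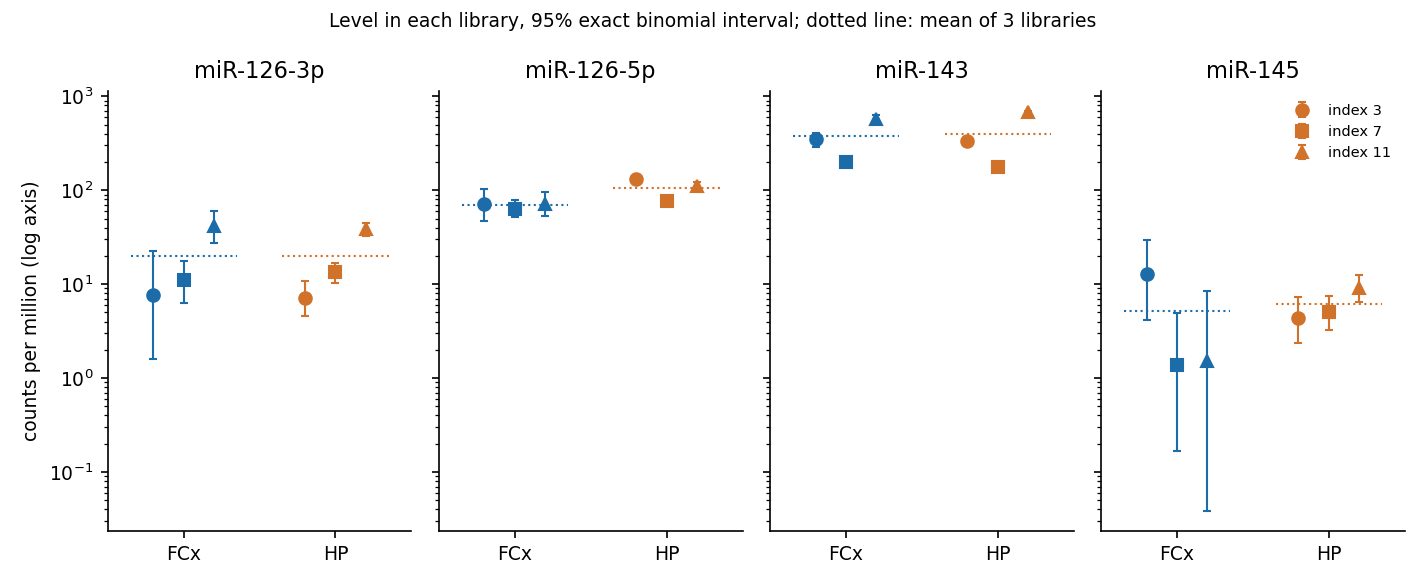
CPM of miR-126-3p, miR-126-5p, miR-143 and miR-145 (log axis) in the 3 FCx (blue) and 3 HP (orange) libraries. Marker shape gives the index, bars are 95% exact binomial intervals of the counts, and the dotted line is the mean of a region. Index 11 was highest for miR-126-3p and miR-143 in both regions, while miR-126-5p separated the regions.

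miR-126-5p, the arm of the endothelial hairpin with most reads, was read at higher levels in HP. It was at 71.5, 63.6 and 72.0 CPM in FCx (28, 93 and 47 counts for indexes 3, 7 and 11) and at 133, 76.3 and 111 CPM in HP (426, 378 and 449 counts). All 3 HP libraries lay above all 3 FCx libraries. This pattern was found for 15 of the 431 miRNAs tested (3.48%), and a separation of the groups in either direction for 39 (9.05%). Within an index the level in HP was 1.86 (interval 1.27 to 2.83), 1.20 (0.953 to 1.52) and 1.54 (1.14 to 2.12) times that in FCx for indexes 3, 7 and 11. The interval excluded 1 for indexes 3 and 11 and included it for index 7.

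The separation was not equally clear in each kind of run. In the shared lanes miR-126-5p was at 59.5, 69.9 and 70.8 CPM in FCx and at 126, 84.1 and 118 CPM in HP, without overlap. In the individual lanes it was at 76.7, 58.7 and 72.4 CPM in FCx and at 137, 71.9 and 108 CPM in HP. Here the HP library with index 7 lay below 2 FCx libraries of other indexes and above the FCx library of its own index.

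The FCx and HP libraries were compared with the quasi-likelihood test of edgeR, with Benjamini-Hochberg adjustment over the 431 miRNAs. With 1 RNA pool per region, the test asks whether the pools differ beyond the spread of their libraries. It is no test across mice. Without the index in the model the log2 fold change of miR-126-5p (FCx over HP) was -1.06 (SE 0.78) and its adjusted p in edgeR was 0.992. This fit called 2 of 431 miRNAs (0.464%), and none of the 4 vessel wall miRNAs. The index paired the libraries of the regions, so it was also fitted as a block. In the blocked fit the log2 fold change of miR-126-5p was -0.97 (SE 0.29) with an adjusted p of 0.00764 in edgeR. The blocked fit called 77 of 431 miRNAs (17.9%), of which 55 (12.8%) were higher in HP and 22 higher in FCx. A call of 1 member among 4 is thus not far from the share of calls among all miRNAs.

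The blocked call depended on how the libraries were scaled. With TMM scaling the median log2 fold change of all tested miRNAs in the blocked fit was -0.38, and with library totals it was -0.01. With library totals miR-126-5p had a log2 fold change of -0.58 and an adjusted p of 0.261 in edgeR, and 56 miRNAs (13.0%) were called, 36 higher in FCx and 20 higher in HP. DESeq2 with the index as a block called 41 (9.51%) and gave miR-126-5p an adjusted p of 0.277. The direction, higher in HP, was the same in each of these fits. Relative to the median of all miRNAs the difference was of like size under TMM and library totals, since the value and the median moved together. Without index 3, 7 or 11 the adjusted p of the blocked edgeR test of miR-126-5p was 0.352, 0.0338 or 0.4002, at log2 fold changes of -0.66, -1.15 and -0.52.

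miR-126-3p, the other arm, did not show this difference. It was at 7.66, 10.9 and 41.4 CPM in FCx (3, 16 and 27 counts) and at 7.17, 13.3 and 38.7 CPM in HP (23, 66 and 157 counts), and the regions overlapped along their whole range. The level in HP was 0.936 (0.283 to 4.87), 1.22 (0.697 to 2.25) and 0.936 (0.619 to 1.47) times that in FCx for indexes 3, 7 and 11. Each interval included 1. The log2 fold change was -0.50 (SE 1.09) without a block (adjusted p of 0.992 in edgeR) and -0.41 (SE 0.39) with it (adjusted p of 0.550). With library totals and no block it was 0.02, and with TMM it was 1.22 without the HP library with index 11 and -1.56 without the FCx library with index 11, so its sign depended on the scaling and on 1 library. Whether the regional difference of the 5p arm itself differs from that of the 3p arm is addressed by the arm balance given further on.

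miR-143, a regulator of smooth muscle cells, was read at like levels in FCx and HP. It was at 347, 198 and 576 CPM in FCx (136, 289 and 376 counts) and at 333, 178 and 680 CPM in HP (1067, 881 and 2757 counts). In both regions index 11 was highest and index 7 lowest, and the regions overlapped. The level in HP was 0.958 (0.801 to 1.15), 0.899 (0.786 to 1.03) and 1.18 (1.06 to 1.32) times that in FCx. The interval for index 11 excluded 1 and those for indexes 3 and 7 did not, and their ratios lay on the other side of 1. The log2 fold change was -0.66 (SE 0.85) without a block and -0.43 (SE 0.29) with it, with adjusted p of 0.992 and 0.347 in edgeR. Without the HP library with index 11 it was 0.69, and with the block and without index 11 it was 0.12, so its sign rests on that index. With library totals and the block it was -0.01, so the negative value under TMM was about the shift of the median of all miRNAs.

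The Mir145 hairpin (chr18:61807470-61807557, 88 nt) and the Mir143 hairpin (chr18:61808850-61808912, 63 nt) lie on the minus strand of NCBIM37 with 1292 bases between them, and no other annotated gene overlaps either. miR-145, the partner of miR-143 in this cluster, was the least read of the 4. It had 5, 2 and 1 counts in FCx (12.8, 1.37 and 1.53 CPM) and 14, 25 and 37 counts in HP (4.37, 5.04 and 9.13 CPM). The FCx library with index 3 was above all HP libraries and the other FCx libraries were below them. The level in HP was 0.342 (0.116 to 1.21), 3.69 (0.919 to 32.1) and 5.96 (1.005 to 242) times that in FCx, so the ratio changed its direction with the index. The log2 fold change was -1.13 both without a block (SE 1.06) and with it (SE 0.67), and the adjusted p in edgeR was 0.992 and 0.268. The interval of index 11 just excluded 1 and rests on 1 FCx count, while those of indexes 3 and 7 included it. The fitted value was -0.09 without the HP library with index 11 and -2.31 without the FCx library with index 3. In blocked fits it ran from -0.10 without index 11 to -2.35 without index 3 (adjusted p of 0.0795 in edgeR), and it was -1.46 in the individual lanes and -0.26 in the shared lanes.

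**Figure D2:**
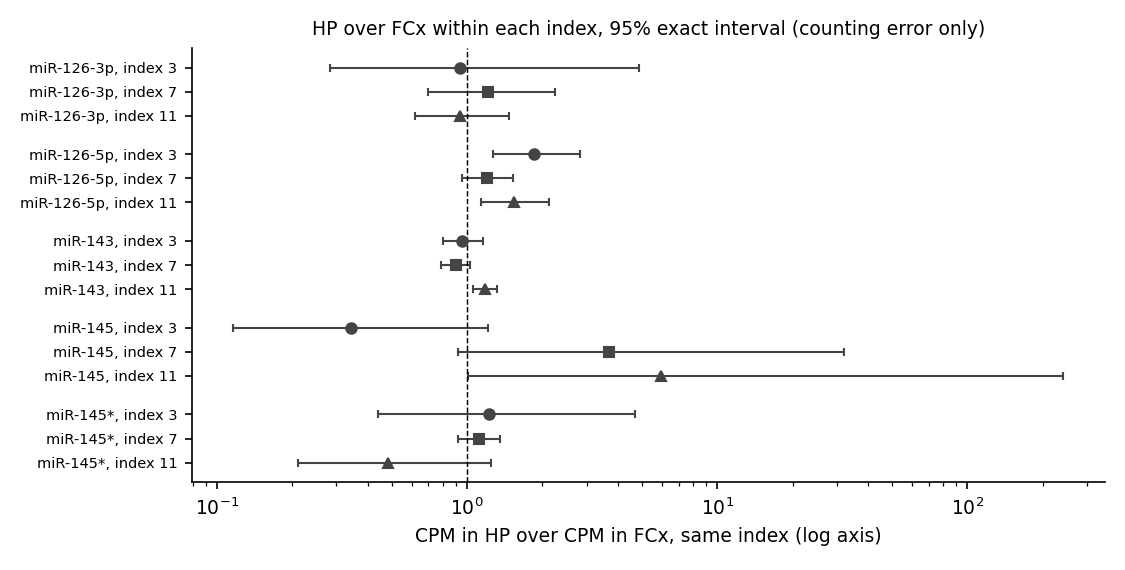
Ratio of the CPM in HP to the CPM in FCx for libraries of the same index (log axis, the dashed line is equality), with 95% exact intervals that cover counting error only. miR-126-5p lies right of equality at all 3 indexes, and the intervals of miR-145 are the widest at indexes 7 and 11.

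The levels of 2 of the 4 miRNAs also differed with the index, the tag at the ligation site. An F test of edgeR (quasi-likelihood) on the index, adjusted for the region, called 264 of 431 miRNAs (61.3%). For miR-126-3p the highest index (11) was 5.40-fold above the lowest (3) in FCx and 5.40-fold in HP, with an adjusted p of 1.67e-09 in edgeR. For miR-143 index 11 was 2.91-fold above index 7 in FCx and 3.83-fold in HP, with an adjusted p of 2.70e-07. For miR-126-5p the ranges were 1.13-fold in FCx and 1.74-fold in HP, and the adjusted p of 0.422 in edgeR did not pass. For miR-145 the ranges were 9.34-fold and 2.09-fold with an adjusted p of 0.220, and the FCx range rests on 5 against 2 counts. Of the 4, 2 were thus called, which is no larger share than among all miRNAs.

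The balance of the arms of miR-126 had the same order of indexes in both regions. miR-126-3p made up 9.68% (interval 2.04 to 25.8), 14.7% (8.63 to 22.7) and 36.5% (25.6 to 48.5) of the counts of both arms in FCx for indexes 3, 7 and 11. In HP it made up 5.12% (3.27 to 7.59), 14.9% (11.7 to 18.5) and 25.9% (22.5 to 29.6). The 5p arm was the more abundant in all 6 libraries, from 1.74 times the 3p arm in FCx with index 11 to 18.5 times in HP with index 3. In both regions the share was lowest with index 3 and highest with index 11, and a difference in the share between indexes was not tested. The mean share was 20.3 ± 14.3% in FCx and 15.3 ± 10.4% in HP, a difference of -4.98 percentage points (two-sided exact permutation test, p = 0.7, n = 3). The difference was 3.12 points without the FCx library with index 11, 0.11 without the HP library with index 3 and -10.3 without the FCx library with index 3 or the HP library with index 11. With 3 libraries against 3 this test cannot go below 0.1, and it does not pair the libraries by index. When the sign was flipped within the indexes the exact p was 0.5, where 3 pairs allow no less than 0.25. Neither test shows that the arms have the same regional ratio.

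In the cluster of miR-143 and miR-145 nearly all reads were miR-143. miR-145 made up 3.55% (1.16 to 8.08), 0.687% (0.0833 to 2.46) and 0.265% (0.0067 to 1.47) of the counts of both in FCx, and 1.30% (0.710 to 2.16), 2.76% (1.79 to 4.05) and 1.32% (0.934 to 1.82) in HP. The means were 1.50 ± 1.78% and 1.79 ± 0.837%, which differed by less than the spread between libraries (two-sided exact permutation test, p = 0.8, n = 3). There was no common order of the indexes in the 2 regions.

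The other arm of the miR-145 hairpin was read most with index 7. miR-145*, which is not among the 4 and is given as context, was at 10.2, 92.4 and 12.3 CPM in FCx and at 12.5, 103 and 5.92 CPM in HP. Index 7 was far above the others in both regions, by 9.04-fold over the lowest in FCx and 17.3-fold in HP (adjusted p of 2.77e-20 between indexes in edgeR). Its level in HP was 1.22 (0.441 to 4.70), 1.11 (0.918 to 1.35) and 0.483 (0.210 to 1.24) times that in FCx. miR-145 made up 55.6% (21.2 to 86.3), 1.46% (0.177 to 5.17) and 11.1% (0.281 to 48.2) of the counts of both arms in FCx, and 25.9% (15.0 to 39.7), 4.68% (3.05 to 6.83) and 60.7% (47.3 to 72.9) in HP. Which arm of this hairpin had more counts thus differed between libraries, and with indexes 3 and 11 it differed between the regions. In HP miR-145* led with indexes 3 and 7 and miR-145 with index 11, and in FCx miR-145* led with indexes 7 and 11 and miR-145, by 5 counts against 4, with index 3. In both libraries where miR-145 led, its interval included equal shares of the arms. miR-143* was in no count file.

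**Figure D3:**
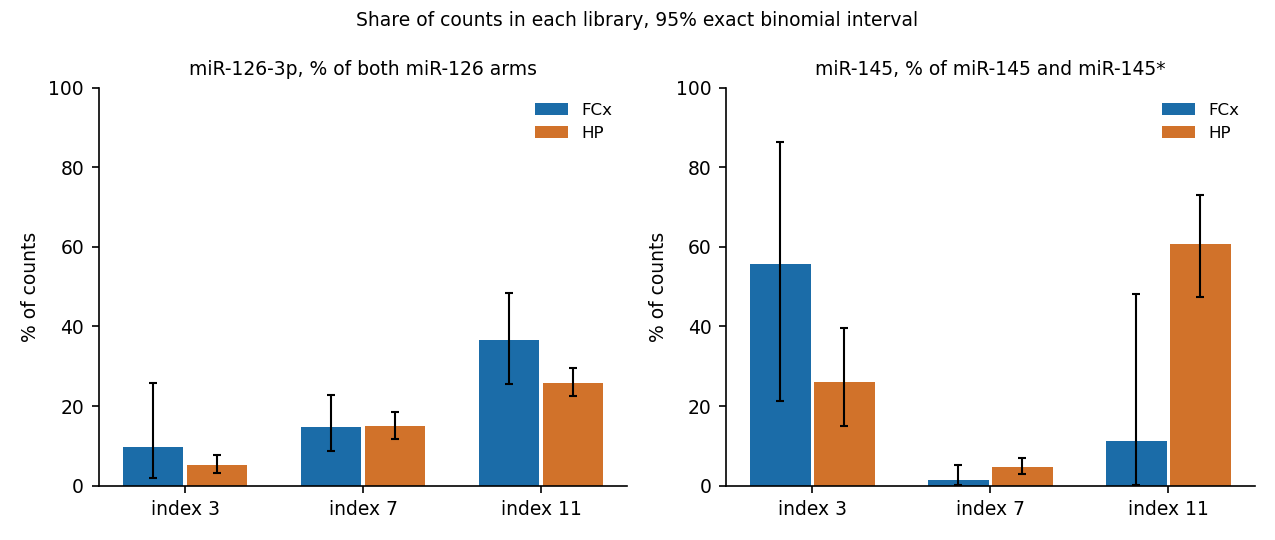
Percent of counts taken by miR-126-3p among both arms of miR-126 (left) and by miR-145 among miR-145 and miR-145* (right), in each FCx (blue) and HP (orange) library. Bars of the same index stand side by side and the error bars are 95% exact binomial intervals. The share of miR-126-3p was lowest with index 3 and highest with index 11 in both regions.

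The endothelial and the smooth muscle miRNAs were also set against each other. The 2 arms of miR-126 made up 18.02%, 27.2% and 16.4% of the counts of the 4 miRNAs in FCx and 29.3%, 32.9% and 17.8% in HP. The share was higher in HP within each of the 3 indexes, and the regions overlapped. The means were 20.6 ± 5.85% and 26.7 ± 7.88%, a difference of 6.13 points (two-sided exact permutation test, p = 0.3, n = 3). The difference was 3.02 points without the HP library with index 7, 10.6 points without the HP library with index 11 and 2.95 points from counts summed over the libraries. When the sign was flipped within the indexes the exact p was 0.25, the smallest that 3 pairs allow.

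The genome alignments gave a second reading of the same molecules, base by base. No alignment lay on the opposite strand of any of the 3 hairpins. Alignments at miR-126-5p amounted to 96.5% of its counts, at miR-126-3p to 97.9%, at miR-145 to 88.1% and at miR-143 to 82.2%. miR-126-5p began at base 9 of its hairpin in 1360 of 1371 alignments (99.2%). miR-143 began at base 40 in 4490 of 4524 alignments (99.2%), and miR-145 at base 16 in 68 of 74 (91.9%). miR-126-3p was the exception, with 168 of 286 alignments (58.7%) at base 46, the mature start.

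**Figure D4:**
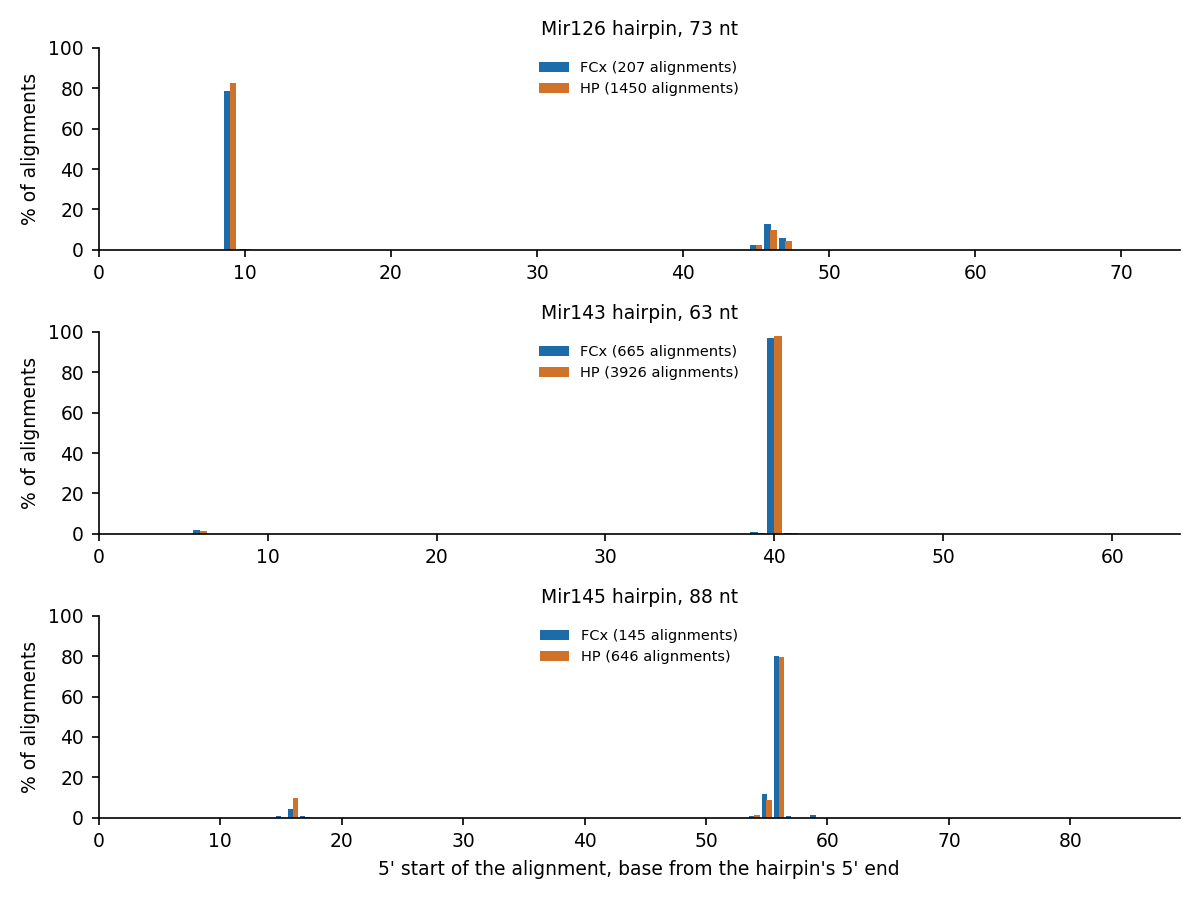
Percent of the alignments on each hairpin by the base, counted from the 5′ end of the hairpin, at which they start, for FCx (blue) and HP (orange) libraries added together. The Mir126 hairpin has a sharp start at base 9 and a spread start around base 46, Mir143 has its main start at base 40, and Mir145 has starts at base 16 and, for miR-145*, at base 56.

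The spread start of miR-126-3p was largest with index 11, whose tag is GGCUAC. The tags of indexes 3 and 7 are UUAGGC and CAGAUC, so the tag base joined to the read is C for each index. In FCx 1 of 3, 2 of 16 and 14 of 24 alignments with indexes 3, 7 and 11 started away from the mature start, that is 33.3% (0.840 to 90.6), 12.5% (1.55 to 38.3) and 58.3% (36.6 to 77.9). In HP 5 of 22, 16 of 67 and 80 of 154 did so, that is 22.7% (7.82 to 45.4), 23.9% (14.3 to 35.9) and 51.9% (43.8 to 60.1). In HP the intervals of index 7 and index 11 did not overlap, while those of index 3 and index 11 did. In FCx the intervals of all 3 indexes overlapped. The HP library with index 11 had 26 alignments that began 1 base before and 54 that began 1 base after the mature start, and the FCx library with index 11 had 4 and 10. Both shifted forms, shown above, carry a c at the base that is joined to the tag. Whether the base at the ligation site had a part in this was not tested.

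A start this spread was uncommon among other miRNAs. Over all hairpin arms with at least 20 alignments, the median share at the most used start was 97.4% in the HP library with index 11 (305 arms) and 97.9% in the FCx library with index 11 (198 arms). miR-126-3p had 48.1% and 41.7% at its most used start in these libraries, and 13 arms (4.26%) and 4 arms (2.02%) were below it. With indexes 3 and 7 in HP its share was 77.3% and 76.1%, and 60 of 314 arms (19.1%) and 59 of 353 arms (16.7%) were below it. Between the regions the share of alignments at the most used start of miR-126-3p was 65.3 ± 22.9% in FCx and 67.1 ± 16.5% in HP (two-sided exact permutation test, p = 1.0, n = 3).

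**Figure D5:**
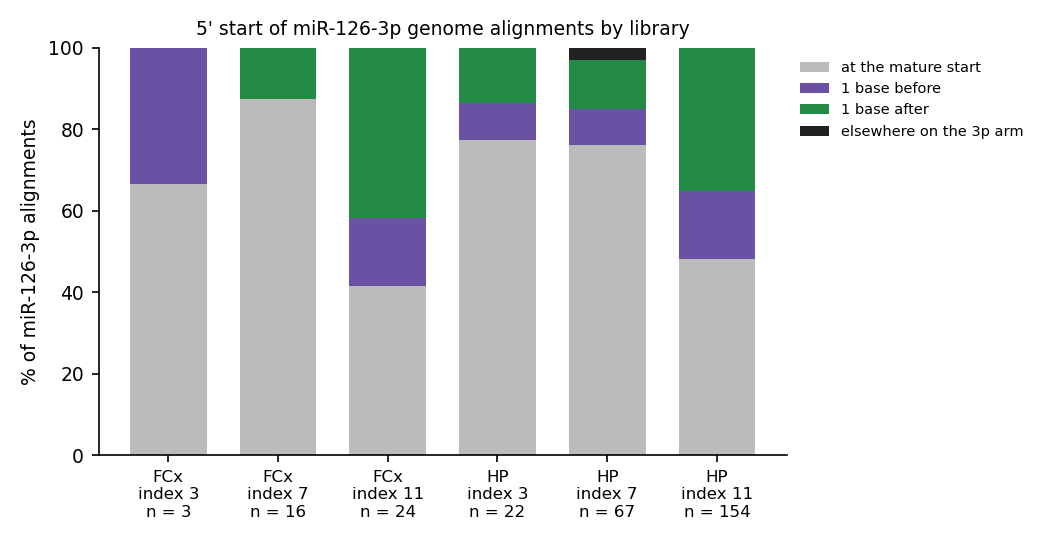
Percent of miR-126-3p alignments that start at the mature start (grey), 1 base before it (purple), 1 base after it (green) or elsewhere on the arm (black) in each library, with the number of alignments under each bar. The libraries with index 11 have the smallest grey part, 41.7% in FCx and 48.1% in HP.

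miRNAs with a like pattern over the 6 libraries were sought with the Pearson correlation of log2 CPM among miRNAs whose mean level reached 10 CPM. The 6 libraries share 3 indexes and 2 RNA pools, so the values are a description. Nearest to miR-126-3p were miR-708* (r = 0.980), miR-93 (0.971) and miR-29b (0.970). Nearest to miR-126-5p were miR-98 (0.925), let-7a (0.924) and let-7f (0.905), which belong to 1 family and can share reads when mismatches are allowed. Nearest to miR-143 were miR-28 (0.988), miR-22 (0.986) and miR-411* (0.981), and nearest to miR-145 were miR-329 (0.945), miR-25 (0.898) and miR-129-3p (0.825). No arm of miR-126 was among the 3 nearest of the other, and between them r was -0.12.

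Other miRNAs of the vessel wall were followed in a list of 14 names. The files count miR-199a-3p and miR-199b in 1 joint row, which leaves 13 rows, of which 12 were listed and 11 could be tested. miR-214 was listed in no library. Without a block none was called between the regions. In the blocked fit of edgeR 1 of 11 was called, against 17.9% of all miRNAs. This was miR-195, a miRNA of the miR-15/16 family, with a log2 fold change of -0.98 (SE 0.37, adjusted p of 0.0497), and with library totals its adjusted p was 0.379. It was at 48.5, 11.6 and 4.60 CPM in FCx and at 44.6, 23.2 and 12.6 CPM in HP, so it was lower in HP with index 3 and higher with the other indexes. The joint row of miR-199a-3p and miR-199b, given here because of its shared name, was at 112, 68.4 and 185 CPM for FCx and at 119, 62.5 and 163 CPM for HP. Like miR-143 it was lowest with index 7 and highest with index 11 in both regions. miR-199a-5p was at 5.11, 3.42 and 3.07 CPM in FCx (2, 5 and 2 counts). In HP it was at 0.624, 0.605 and 1.97 CPM (2, 3 and 8 counts). It alone of the list did not overlap between the regions, and unlike miR-126-5p it was higher in FCx. Among all miRNAs tested 9.05% did not overlap, counting either direction. The blocked median log2 fold change of the list was -0.38, beside -0.38 for all miRNAs tested and -0.70 for the 4. By mean level the most abundant of the list was miR-222, which with miR-221 restrains endothelial growth and promotes that of smooth muscle. miR-221 was at 2246, 3432 and 582 CPM in FCx and at 2502, 4128 and 661 CPM in HP. It was above miR-222 with index 3 in both regions and with index 11 in HP. miR-222 was at 2156, 8214 and 625 CPM in FCx and at 1907, 10466 and 628 CPM in HP. It was highest with index 7, where miR-143 was lowest (adjusted p of 5.63e-22 between indexes in edgeR). Between indexes 7 of the 11 were called, against 61.3% of all miRNAs.

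The levels of blood and neighbouring tissue were read beside these values. The 7 miRNAs of blood cells summed to 99.6, 183 and 112 CPM (FCx) and to 109, 181 and 69.3 CPM (HP), and all 7 were listed. By mean level the first of them was miR-451, a miRNA of red cells. For indexes 3, 7 and 11 its FCx levels were 35.8, 140 and 21.5 CPM, and its HP levels 60.2, 143 and 20.2 CPM. It did not lead in every library. In FCx miR-486 exceeded it with indexes 3 and 11 (43.4 and 42.9 CPM). With index 11 miR-150 also exceeded it (FCx 35.3 CPM, HP 27.9 CPM). None of the 7 was called without a block or in the blocked fit. With library totals and the block 1 of 7 was called, against 13.0% of all miRNAs. This was miR-486, at a log2 fold change of 1.03 (adjusted p of 0.0235 in edgeR). Between the indexes miR-451 was highest with index 7 in both regions. The part of blood in the level of miR-126-5p was not tested. The striated muscle list, led by miR-1, summed to 128, 1084 and 107 CPM (FCx) and to 127, 819 and 72.0 CPM (HP). None of its 5 tested miRNAs was called between regions, against 17.9% of all miRNAs in the blocked fit.

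The neuronal miR-128 lay higher in every FCx library than in any HP library. It made up the larger part of the sum of its list except in the HP library with index 7, where it was at 70734 CPM. The 4 neuronal miRNAs summed to 252203 ± 17736 CPM for FCx and 140870 ± 33841 CPM for HP (SD, n = 3). Their most abundant member miR-128 was at 193829 ± 15839 and 81734 ± 25136 CPM. Without miR-128 the list summed to 45832, 95669 and 33623 CPM (FCx) and to 39716, 99142 and 38549 CPM (HP), and the regions overlapped. In the blocked fit 1 of the 4 neuronal miRNAs was called, against 17.9% of all miRNAs. This was miR-9, higher in HP (log2 fold change of -0.89, adjusted p of 0.0348 in edgeR). miR-128 did not pass there (0.86, adjusted p of 0.0631 in edgeR). With library totals and the block 2 of the 4 were called, against 13.0% of all miRNAs. These were miR-128 and miR-124, higher in FCx at 1.29 and 0.72, while miR-9 no longer passed (adjusted p of 0.0736 in edgeR). Of the 3 oligodendrocyte miRNAs 1 was called in the blocked fit, miR-219, higher in HP (-1.09, adjusted p of 0.00287 in edgeR), against 17.9% of all miRNAs. It was at 1484, 340 and 507 CPM for FCx and at 1754, 1539 and 383 CPM for HP, so with index 11 it was lower in HP. Of the 4 choroid plexus miRNAs 1 was called, miR-204, higher in HP (-1.49, adjusted p of 8.98e-04 in edgeR), against the same 17.9%. Neither passed with library totals (adjusted p of 0.185 and 0.0883 in edgeR). miR-128 took a large part of all counts in FCx, and CPM are shares of a library. Its part in the higher CPM of miR-126-5p in HP was not tested.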

How the data were processed

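Small RNA of FCx and HP was measured in 12 lane files from 6 libraries. The values are, as deposited by the authors, counts of reads per mature miRNA of miRBase without normalization. The authors divided the reads by index, removed adaptor dimers, homopolymers, mitochondrial and ribosomal sequences and reads under 14 nt, and aligned with Bowtie with up to 2 mismatches. miRNAs without a read are not listed. The other values deposited by the authors are start and end positions of genome alignments in NCBIM37.

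The runs of a library were summed (n = 3 per region, named by the 1 index that the label of each sample gives; the labels' protocol can also be read as each replicate having all 3 indexes). FCx and HP were compared with the quasi-likelihood test of edgeR 4.0.16 (R 4.3.3, TMM, Benjamini-Hochberg) on 431 miRNAs (2 or more counts in a region). Every adjusted p comes from this test unless DESeq2 (1.42.0) is named. Across miRNAs, r between log2 CPM of FCx and HP, centred within each region, was 0.796, 0.846 and 0.854 for equal indexes. The index thus pairs the libraries and was also fitted as a block. For unequal indexes r was -0.618 to -0.226, and negative values there follow from the centring once equal indexes correlate. The edgeR step was also run on simulated counts without an index effect, which does not test it under the index effect found here. Other values were calculated with Python 3.11.15 and scipy 1.17.1. The exact permutation tests did not pair the libraries by index. A read was placed on an arm by its 5′ start within a hairpin. Named are the 4 miRNAs, the 3 most similar to each, and miR-145*. From 6 cell type lists the most abundant by mean and those called are named, with miR-221, miR-150 and the miR-199 rows beside them. The members, lists and tests were chosen with earlier results of these data known.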

Additional observations from a re-analysis of the deposited data

Results flagged for a closer look

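The order of the indexes differed between FCx and HP for 2 of the 4 miRNAs. The log2 ratio of miR-126-5p with index 3 over index 11 was -0.010 in FCx and 0.26 in HP. The log2 ratio of miR-145 with index 3 over index 7 was 3.22 in FCx and -0.21 in HP, and with index 3 over index 11 it was 3.06 in FCx and -1.06 in HP. Each of these ratios rests on 1 library against 1, the FCx values of miR-145 rest on 5, 2 and 1 counts, and the differences between the regions were not tested.

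The 5p arm of the Mir143 hairpin has no row in the count files, but 67 genome alignments lay on it over the 6 libraries. With indexes 3, 7 and 11 they numbered 0, 10 and 2 (FCx) and 6, 46 and 3 (HP), and 63 of them (94.0%) began at base 6 of the hairpin. Index 7 was highest in both regions, as for miR-145*. For miR-143 itself index 7 was lowest.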

How the results depend on the processing

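In all, 178 recomputed values kept their direction and, for fits, their side of the threshold, or moved within the limit for a count. Of the rest 15 changed sign, 23 moved further and 2 became calls. Shares and starts were judged by direction only. The 178 include the sign flips, which repeat the main difference, and a difference of 0.0 for the start of miR-126-5p in the shared lanes. The index adjusted p of miR-126-3p and miR-143 stayed under the threshold in all 6 alternatives (highest 0.000996 and 0.00173). The log2 fold change of miR-126-5p was negative in every alternative run (-1.15 to -0.48).

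With the replicate block (pairing by index) miR-126-5p became a call (-0.97), and without single indexes the blocked value was -1.15 to -0.52. Leaving out single libraries gave -1.56 to 1.22 for miR-126-3p and -1.12 to 0.69 for miR-143 (-0.49 to 0.12 with the block), and both turned positive without the HP library with index 11 (the blocked value of miR-143 without index 11). Library totals gave 0.023 for miR-126-3p. The block changed no other call of the 4.

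The 2 calls without a block became 77 with the replicate block, 56 with the block and library totals, 12 with DESeq2, 41 with DESeq2 and the block, 8 without a filter, 0 with the shared lanes alone and 15 with 12 lane files as samples. They were 0 to 7 without single libraries (0 without HP index 3 or 11) and 30 to 51 with the block. The 17 miRNAs at an unadjusted p under 0.05 became 119, 93, 73 (DESeq2 with the block) and 47 (12 lane files), and 79, 90 and 87 in blocked fits without index 3, 7 or 11.

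Differences between regions in shares, HP minus FCx, changed sign without single libraries: -10.3 to 3.12 points for the miR-126-3p share (positive without FCx index 11 or HP index 3), -0.32 to 1.32 for miR-145 in its cluster (-0.15 in the shared lanes), -9.94 to 13.0 for the start of miR-126-3p (-12.7 in the shared lanes) and -8.68 to 11.3 for the start of miR-145. The nearest miRNAs of miR-126-3p and miR-143 shared 0 of 3 with those by Spearman correlation. FCx depth limits miR-126-3p and miR-145.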
